A study of Mus musculus with 4 samples.

Results

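The hedgehog pathway genes described here are 9 members of the deposited count table of 34682 gene symbols: the ligands Dhh, Ihh and Shh, the receptor Ptch1 and the signal transducer Smo, the transcription factors Gli1, Gli2 and Gli3, and the ligand-binding inhibitor Hhip. They were chosen by name, with earlier results of these data known, and all 9 are listed in the table. RNA was sequenced from mouse ovaries at embryonic stage E13.5, with 2 libraries of Sall1-overexpressing mutants and 2 wild-type libraries. In the mutants, a BAC transgene, a large genomic insert, carried the Sall1 coding sequence under the promoter and regulatory elements of Wt1, a gene of gonadal somatic cells, and was integrated with piggyBac into female embryonic stem cells that were then used for morula aggregation. The number of stem cell clones and of embryos behind each library was not given. The controls are called littermates in one place, the methods name CD1 as the strain of wild-type gonads, and the wild-type column names contain B6, while the stem cells were C57BL/6J or a hybrid of it, so that strain and transgene cannot be told apart here.

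Hedgehog ligands are secreted proteins that bind Patched receptors. A Patched receptor without ligand holds Smoothened inactive, and Gli2 and Gli3 are then largely kept inactive or cut to repressors. When ligand binds, Smoothened signals at the primary cilium, Gli activators enter the nucleus, and Gli1, Ptch1 and Hhip are transcribed, so that these genes serve as readouts of the pathway in many tissues. In the fetal testis, Dhh from Sertoli cells acts on interstitial cells and is needed for Leydig cells. In the ovary, Dhh and Ihh are known from granulosa cells of later stages, with theca cells as the responding cells.

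The hedgehog genes were also searched for the letters of the Gli binding consensus. The consensus Gli binding sequence GACCACCCA, or its reverse complement TGGGTGGTC, was searched within 2000 bases on either side of the annotated protein-coding transcript starts in NCBIM37 (mm9). It was found at 1 of the 9 hedgehog genes, Ptch1, against 4.46% of 22238 genes. The genes of the list of other target genes, described below, were searched as well, and no match was found at them. Gli1 and Hhip, the other readouts named above, had no match. The matches at Ptch1 are shown 5′ to 3′ on the strand that reads GACCACCCA, with the consensus in capitals.
Ptch1 internal start, chr13:63667733-63667761, plus strand: aaagtagagaGACCACCCAggtaggcaac
Ptch1 first start, chr13:63674763-63674791, minus strand: tggcgcggcaGACCACCCAcgccgagggc
The middle of the first match lay at -919 bases from the internal Ptch1 start at 63666828, in an intron of the gene. The second lay at -303 bases from the 5′-most Ptch1 start at 63674474, outside the gene. A match is a string of letters and does not show binding, and a gene without a match only lacks these letters in this window.

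The libraries held between 11036313 and 17869840 counts. Sall1, the overexpressed gene, was counted 1243 and 1445 times in the mutants and 279 and 223 times in the wild type, in the direction of the labels. Wt1 had 341 and 292 CPM (counts in each library relative to its size, after TMM scaling in edgeR) in the mutants and 309 in both wild-type libraries. The ovarian identity of the libraries was checked against marker lists. Foxl2, a pre-granulosa transcription factor, had 46.3 and 44.1 CPM in the mutant and 28.0 and 32.0 CPM in the wild-type libraries. Both mutant libraries lay above both wild-type libraries in 3 of the 7 pre-granulosa genes, against 15.8% of all genes tested. They lay below in 1, against 15.1%. This was Bmp2, with 25.0 and 21.9 CPM in the mutants and 42.7 and 38.5 CPM in the wild type. Amh, the hormone that defines Sertoli cells, had 3 counts in each of the 4 libraries, too few to be tested. Of the 6 genes of the Sertoli list that were tested, 3 had both mutant libraries above both wild-type libraries, against 15.8% of all genes tested. In 0 of them both lay below, against 15.1%. Insl3, a Leydig cell hormone, had 0 to 6 counts in a library. The germ cell gene Dazl had between 618 and 777 CPM.

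No hedgehog gene passed the test between mutant and wild-type ovaries with genotype as the only factor. Of the 9 genes, 7 had enough counts to be tested, and 0 of them reached an adjusted p under 0.05 in edgeR's quasi-likelihood test, where 0.0583% of the 15442 genes tested did. DESeq2 gave an adjusted p for the same 7 genes and called 0 of them, against 0.714% of the 14709 genes with an adjusted p. At an unadjusted p under 0.05 there were 2, Gli2 and Ptch1, against 5.69% of all genes. The mutant and wild-type libraries did not overlap for 4 of the 7 genes tested (57.1%), against 30.9% of all genes tested. Ptch1 was higher in the mutants, a direction taken by 15.8% of all genes, and Gli1, Gli2 and Gli3 were lower, which 15.1% were. With 7 genes tested, these counts are a description. The median log2 fold change of the 7 genes was -0.19, beside -0.00088 for all genes tested. With 2 libraries against 2, the smallest p of an exact permutation test for 1 gene is 0.333. The p-values given here therefore depend on a spread estimated across genes, which may be technical because the labels do not say that the libraries came from separate animals.

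**Figure D1:**
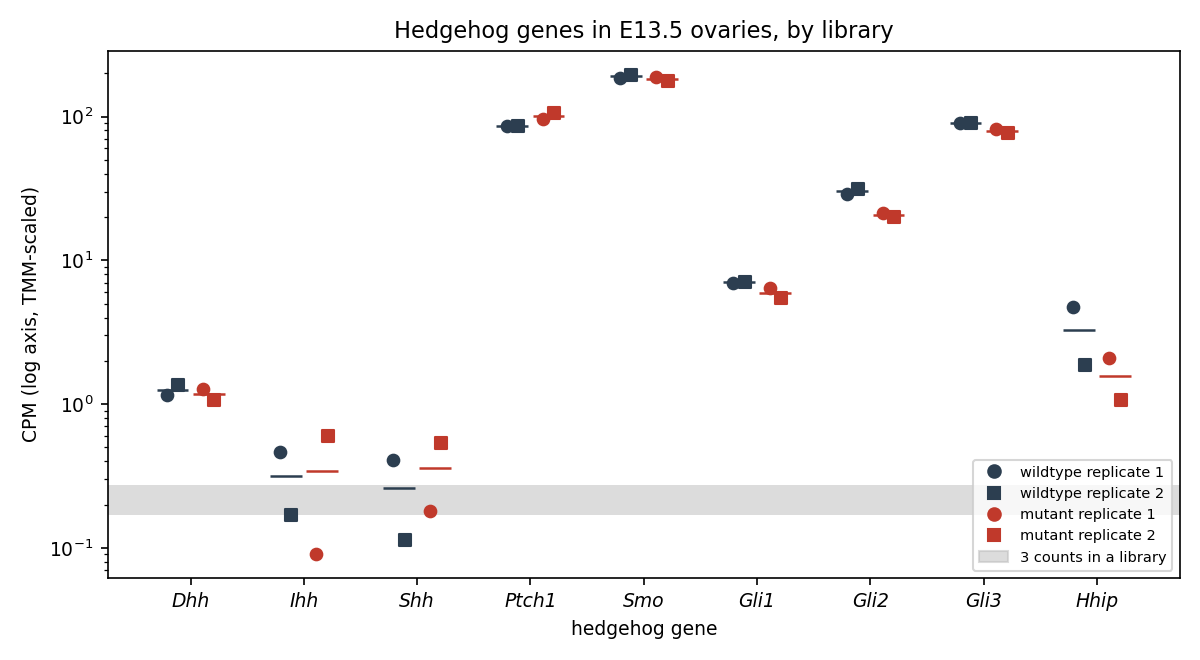
Level of each hedgehog gene in each library, in TMM-scaled CPM on a log axis; points are libraries, short lines are group means (n = 2), and the grey band is the CPM that 3 counts give in the 4 libraries. Smo, Ptch1 and Gli3 lie at the top between 76.3 and 195 CPM, Dhh between 1.06 and 1.36 CPM, and Ihh and Shh around the band, and the mutant points of Gli2 lie below both wild-type points.

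By mean level per length, Ihh and Shh were the least abundant of the genes in both groups, and the range of Dhh over the 4 libraries lay within that of Hhip. Dhh, on chromosome 15 from 98723462 to 98728971 (minus strand, GENCODE M1 annotation of NCBIM37), had 14 and 16 counts in the mutants and 20 and 24 counts in the wild type. These correspond to 1.27 and 1.06 CPM in the mutant and 1.16 and 1.36 CPM in the wild-type libraries, so the groups overlapped. The log2 fold change was -0.12 (standard error 0.41, 95% interval from -1.09 to 0.86), and its sign changed when either mutant replicate 2 or wild-type replicate 2 was left out. At this depth the interval is wide and does not settle whether Dhh differed.
Ihh, on chromosome 1 from 74991891 to 74998246, was counted 1 and 9 times in the mutants and 8 and 3 times in the wild type. Shh, on chromosome 5 from 28783355 to 28793641, was counted 2 and 8 times in the mutants and 7 and 2 times in the wild type. Both genes were removed by edgeR's filter for low counts, and in each group 1 library lay at or under the 3 counts taken as the floor, which covers counting error only. Summed over a group, Ihh had 10 counts in the mutants and 11 in the wild type, and Shh had 10 and 9. Of the exonic bases of Shh, 24.2% are shared with genes on the opposite strand, and since it is not stated whether strands were kept apart in the counting, its few reads are uncertain.

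Smo and Ptch1, which pass the signal across the membrane, were the 2 most abundant hedgehog genes per length. Smo, on chromosome 6 from 29685694 to 29711365 (plus strand), had 187 and 177 CPM in the mutant and 187 and 195 CPM in the wild-type libraries. Its groups overlapped, and the log2 fold change of -0.07 had a standard error of 0.09. The 95% interval, from -0.28 to 0.14, corresponds to a change between -17.5% and 10.3%. It rests on the spread estimated in this fit, which may be technical.
Ptch1, on chromosome 13 from 63610261 to 63674474 (minus strand), is both the receptor and a target of the pathway. It had 96.4 and 106 CPM in the mutants and 85.6 and 85.3 CPM in the wild type. Both mutant libraries lay above both wild-type libraries. The log2 fold change of 0.24 (standard error 0.10) corresponds to 18.4% more in the mutants, with a 95% interval from 0.89% to 38.9%. By edgeR's quasi-likelihood test the unadjusted p was 0.0413 and the adjusted p 0.849, so Ptch1 did not pass. DESeq2 gave an adjusted p of 1 for Ptch1.

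Among the Gli factors, Gli2 stood farthest from its wild-type level. Gli2, the main activator of the pathway, lies on chromosome 1 from 120730709 to 120950196 (minus strand). It had 235 and 299 counts in the mutants and 498 and 552 counts in the wild type, or 21.3 and 19.9 CPM against 28.9 and 31.3 CPM. Both mutant libraries lay below both wild-type libraries, and the gap between the groups was larger than the difference within either. The means of the 2 groups were 20.6 ± 1.02 CPM for the mutants and 30.1 ± 1.65 CPM for the wild type (each with its SD, n = 2). The log2 fold change of Gli2 was -0.55 (standard error 0.13), a change of -31.7% with a 95% interval from -44.5% to -15.8%. It was rank 153 of the 15442 genes by p, at an unadjusted p of 0.00361 and an adjusted p of 0.363 (edgeR, with genotype as the only factor), and DESeq2 gave an adjusted p of 0.483.
Gli3, the main repressor of the pathway, lies on chromosome 13 from 15555068 to 15821859 (plus strand). It had 81.9 and 76.3 CPM in the mutants and 90.1 and 90.3 CPM in the wild type. Both mutant libraries were lower, but the log2 fold change of Gli3 was small, -0.19 (standard error 0.10, 95% interval from -0.42 to 0.04, adjusted p = 1 in edgeR's test).
Gli1, an activator that is itself a target, lies on chromosome 10 from 126766945 to 126778645 (minus strand) and shares 55 of its 3782 exonic bases with Arhgap9 on the opposite strand. It had 71 and 82 counts in the mutants and 120 and 125 counts in the wild type. In CPM this was 6.44 and 5.45 against 6.97 and 7.08, again with both mutant libraries lower. The log2 fold change of -0.24 for Gli1 had a standard error of 0.23 and a 95% interval from -0.79 to 0.30, which includes 0.

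**Figure D2:**
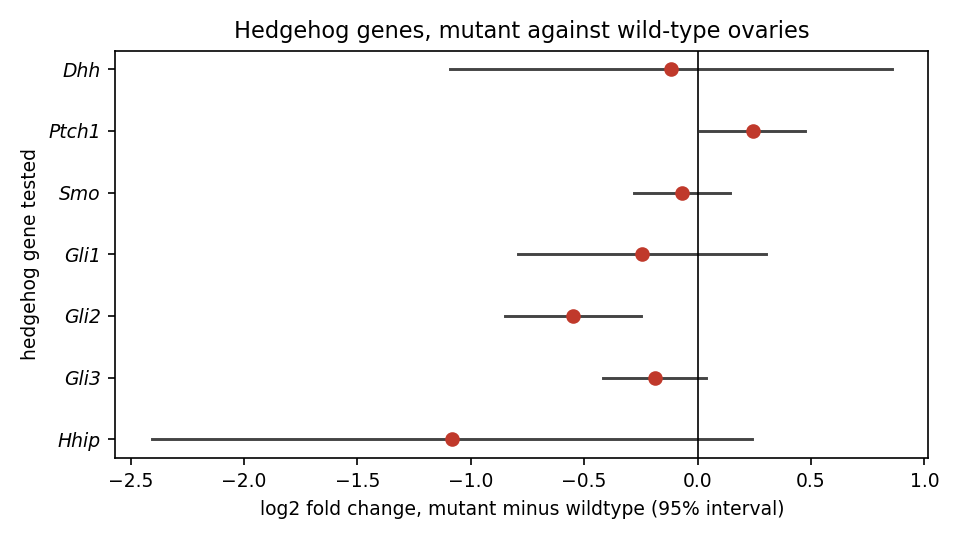
Log2 fold change between mutant and wild-type ovaries for the 7 hedgehog genes tested, with points for the estimate and lines for the 95% interval from edgeR's quasi-likelihood fit. The intervals of Gli2 (from -0.85 to -0.25) and Ptch1 (from 0.01 to 0.47) leave out 0 before adjustment for the number of genes, and those of Dhh and Hhip are the widest.

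Hhip, which binds ligand at the cell surface and is induced by the signal, lies on chromosome 8 from 82490014 to 82581905 (minus strand). It had 23 and 16 counts in the mutants and 81 and 33 counts in the wild type. In CPM this was 2.09 and 1.06 against 4.71 and 1.87, so that wild-type replicate 1 stood above the other 3 libraries and the groups overlapped. The log2 fold change of Hhip was -1.08 (standard error 0.56, 95% interval from -2.40 to 0.24, adjusted p = 1 in edgeR's test). Without wild-type replicate 1 it was -0.27, and without wild-type replicate 2 it was -1.59.
The same library was high in other cell types' markers. The summed level of 6 glial markers was 51.0 CPM in wild-type replicate 1 and between 29.8 and 34.4 CPM in the other libraries, and Sox10, which defines glia of the neural crest, had 67 counts there, against 4 in wild-type replicate 2 and 13 and 0 in the mutants. The summed level of 6 erythroid markers was 137 CPM in wild-type replicate 1, 60.6 CPM in wild-type replicate 2, and 107 and 25.6 CPM in the mutants. The part of these cells in the Hhip values was not tested.

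To compare the genes with each other, CPM were divided by the exonic length of each gene in GENCODE M1, which gives RPKM (CPM per kilobase of exon). In the wild type, Smo had the highest level at 50.6 RPKM, followed by Ptch1 at 13.0, Gli3 at 9.41, Gli2 at 4.38, Gli1 at 1.86, Hhip at 0.672, Dhh at 0.534, Ihh at 0.129 and Shh at 0.0966 RPKM. In the mutants the order of Hhip and Dhh was turned, with 0.322 RPKM for Hhip and 0.494 RPKM for Dhh. Over all 4 libraries, the ranges of neighbours in the wild-type order overlapped only for Hhip with Dhh and for Ihh with Shh, and the range of Ihh also reached that of Hhip. The annotation used for the counting was not stated, so a level per length is less certain than a difference between libraries.
Gli3 made up most of the Gli family per length, and the shares of Gli3 and Gli2 did not overlap between the groups. Gli3 made up 64.0% and 64.7% of the summed Gli RPKM in the mutants and 60.8% and 59.4% in the wild type. The share of Gli2 was 23.2% and 23.5% in the mutants, below the 27.3% and 28.7% of the wild type, while that of Gli1 lay between 11.7% and 12.8% in all 4 libraries. These shares repeat the values above on another scale and were not tested.

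The difference in Gli2 was measured beside a difference in stromal genes. Gli2 is known from mesenchyme, and the list of 8 markers of interstitial and mesonephric mesenchyme had a median log2 fold change of -0.51. In 6 of the 8 genes both mutant libraries lay below both wild-type libraries, against 15.1% of all genes tested, in 1, Osr2, they lay above, against 15.8%, and 0 passed edgeR's test. Tcf21, a transcription factor of gonadal and renal mesenchyme, had 28.0 and 23.3 CPM in the mutants and 57.7 and 51.7 CPM in the wild type, with an adjusted p of 0.0811 from edgeR and 2.71e-06 from DESeq2. Pdgfra, a growth factor receptor of stromal cells, had 168 and 139 CPM in the mutants and 233 and 217 CPM in the wild type, with adjusted p of 0.301 from edgeR and 0.00679 from DESeq2. The summed level of the list did not separate the groups, with 931 and 604 CPM in the mutants and 918 and 850 CPM in the wild type, and Col1a1, a collagen chain, was its most abundant gene at 313 to 554 CPM. In RNA from whole ovaries, fewer stromal cells and less RNA per cell cannot be told apart, and the part of stromal cells in the Gli2 values was not tested.

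**Figure D3:**
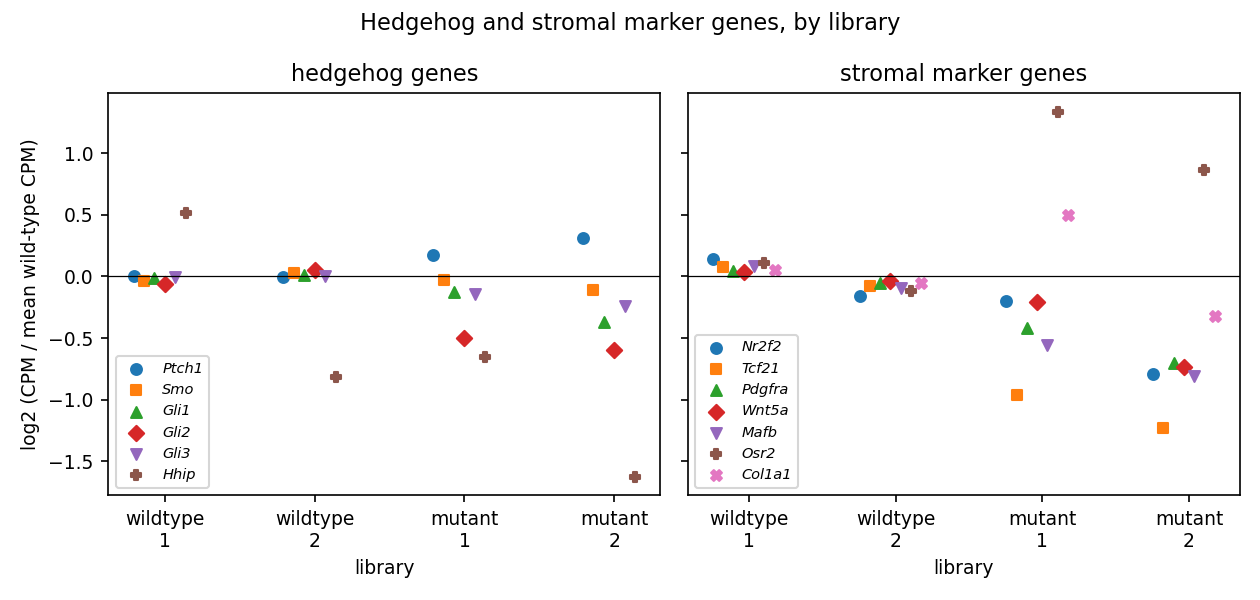
Log2 ratio of each library's CPM to the mean wild-type CPM, for 6 hedgehog genes on the left and 7 of the 8 stromal markers on the right; each point is 1 gene in 1 library. Gli2 lies below 0 in both mutant libraries, as do Tcf21 and Pdgfra, while Osr2 lies above 0 in both, and Hhip is spread widely in both groups.

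The other marker lists showed 0 genes past edgeR's test as well. At an unadjusted p under 0.05 there were 20 of the 56 marker genes tested over all 9 lists, 8 higher and 12 lower in the mutants, or 35.7% beside the 5.69% of all genes. The median log2 fold change was 0.04 for the pre-granulosa, 0.47 for the Sertoli, -0.06 for the steroidogenic, 0.21 for the mesonephric epithelium, -0.06 for the germ cell, -0.02 for the endothelial, -0.997 for the erythroid and -1.05 for the glial list. For the cells that make or answer to Dhh in the testis, the Sertoli and steroidogenic lists were summed. The summed level of the Sertoli list was 90.3 and 82.2 CPM in the mutants and 79.0 and 67.4 CPM in the wild type. Most of it came from Dmrt1, which germ cells also express, but Dmrt1 had a log2 fold change of 0.01 (standard error 0.17). Both mutant libraries were higher in Aard, Ptgds and Sox9. Their log2 fold changes were 0.69 (standard error 0.16), 1.75 (standard error 0.35) and 0.32 (standard error 0.28). By edgeR the adjusted p was 0.356 for Aard and 0.266 for Ptgds. Of the 6 Sertoli genes tested, 1 lay below 0, Fgf9 at -0.34 (standard error 0.45). The summed level of the steroidogenic list was 43.0 and 50.0 CPM in the mutants and 53.2 and 60.7 CPM in the wild type. Hsd3b1, a steroid dehydrogenase and the most abundant gene of that list, differed by -0.46 on the log2 scale (standard error 0.18, adjusted p = 0.833, edgeR). The list did not move in 1 direction. Of its 6 genes tested, both mutant libraries were lower in 2, against 15.1% of all genes tested. They were higher in 2, against 15.8%. These were Cyp11a1 and Mc2r, with log2 fold changes of 1.11 (standard error 0.42) and 1.12 (standard error 0.45). Of the remaining lists, the most abundant genes included Wnt4, which promotes ovary development, at 147 to 188 CPM, Pecam1, an endothelial adhesion protein, at 153 to 166 CPM, Alas2, an erythroid enzyme of heme synthesis, at 16.5 to 87.4 CPM, and Ret, a receptor of the nephric duct, at 8.71 to 17.8 CPM.

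The rest of the pathway was examined with 58 further genes in 4 lists by role. Of these, 54 were tested and 0 passed edgeR's quasi-likelihood test or DESeq2. At an unadjusted p under 0.05 there were 3, Scube2 and Fuz higher and Ccnd1 lower in the mutants, or 5.56% beside the 5.69% of all genes. The groups did not overlap for 19 of the 54, or 35.2% beside the 30.9% of all genes. The median log2 fold change of the 54 genes was 0.01.
In the list of ligand release and co-receptors, 10 of 11 genes were tested and the median was -0.0039. Scube2, a secreted protein that helps release the lipid-bound ligand from the cell, had 9.16 and 11.2 CPM in the mutants and 6.22 and 7.08 CPM in the wild type. Both mutant libraries were higher, and the log2 fold change of Scube2 was 0.62 (standard error 0.22, adjusted p = 0.746 in edgeR's test). The co-receptor Cdon had 254 and 217 CPM in the mutants and 213 and 192 CPM in the wild type, a log2 fold change of 0.21 with a 95% interval from -0.05 to 0.48. Lrp2, an endocytic receptor that also binds Shh, and Scube1 had log2 fold changes of -0.31 and -0.12, each with an interval that includes 0. Per length, the co-receptors Cdon, Boc and Gas1 had wild-type levels of 26.3, 25.0 and 24.7 RPKM, between those of Smo and Ptch1. Disp1, which exports the ligand, was listed at 0 in every library, as were 12440 of the 34682 genes. The annotation used for the counting was not stated, so this 0 does not show that Disp1 RNA was absent.

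The 18 cytoplasmic regulators were all tested, with log2 fold changes from -0.14 to 0.26 and 0 genes at an unadjusted p under 0.05. Sufu, the inhibitor that holds Gli factors in the cytoplasm, had 50.8 and 43.9 CPM in the mutants and 52.9 and 51.3 CPM in the wild type. Its log2 fold change of -0.14 (95% interval from -0.42 to 0.14) was the lowest of the list. Btrc, part of the ubiquitin ligase that marks Gli proteins for processing, Iqce, a protein of the ciliary complex with Evc, and Mgrn1, a ubiquitin ligase that lowers Smoothened, had log2 fold changes of 0.13, 0.14 and 0.26, each with a 95% interval that includes 0.
All 16 genes of the primary cilium were tested, with a median of 0.06. Fuz, a planar polarity effector needed for cilia, had 16.1 and 17.0 CPM in the mutants and 12.9 and 12.3 CPM in the wild type, or 0.39 on the log2 scale (standard error 0.15, adjusted p = 0.834, edgeR). Of its exonic bases, 14.4% are shared with Ap2a1 on the opposite strand. Cc2d2a and Tmem67, of the ciliary transition zone, had log2 fold changes of 0.24 and 0.19, and Arl13b, a small GTPase of the cilium, had -0.20, with intervals that include 0.

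Of the 13 other target genes, known from other tissues, 10 were tested, with a median of -0.19. Ccnd1, a cyclin that drives entry into the cell cycle, had 68.9 and 67.9 CPM in the mutants and 91.1 and 85.8 CPM in the wild type. Both mutant libraries were lower, and the log2 fold change of Ccnd1 was -0.37 (standard error 0.10, 95% interval from -0.60 to -0.14). By edgeR its unadjusted p was 0.00686 and the adjusted p 0.477, so it did not pass, and 21.3% of its exonic bases are shared with Oraov1 on the opposite strand. Bcl2, an inhibitor of cell death, Snai1, a repressor of epithelial genes, and Sfrp1, a Wnt antagonist, had log2 fold changes of -0.29, -0.46 and -0.20, each with an interval that includes 0. Foxf2 had 1 to 8 and Foxl1 1 to 7 counts in a library, too few to be tested. Nkx3-2 was listed at 0 in every library, with the same limit as for Disp1.

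**Figure D4:**
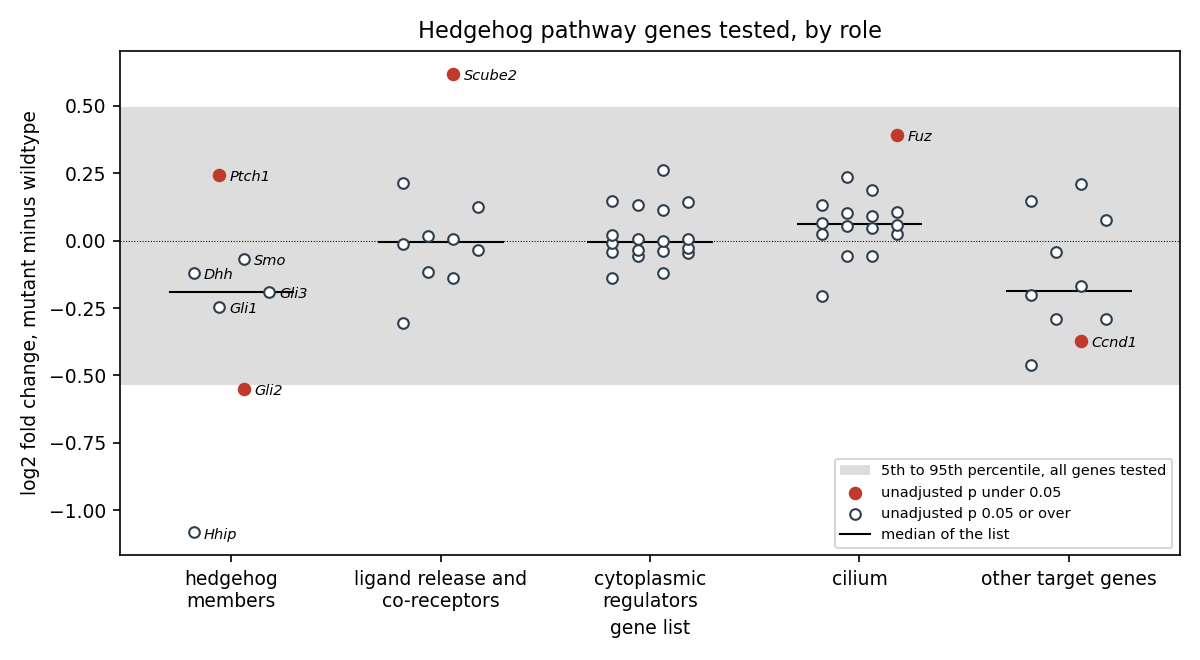
Log2 fold change between mutant and wild-type ovaries for the hedgehog genes and 4 lists of other pathway genes tested; each point is a gene, filled where the unadjusted p is under 0.05, lines are medians, and the grey band spans the 5th to 95th percentile of all genes tested (-0.54 to 0.50). The cytoplasmic regulators and cilium genes lie inside the band, and Scube2, Gli2 and Hhip lie outside it.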

How the data were processed

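Reads from 4 libraries of E13.5 mouse ovaries had been aligned by the authors with STAR 2.6.1d and counted per gene with summarizeOverlaps. The submitters' processing notes name mm9; annotation and strand setting are not given in the sources used here. The authors deposited raw counts per gene symbol, without pooling, and 0 columns were left unused.

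Counts were analysed with edgeR 4.0.16 in R 4.3.3, with TMM scaling, the filterByExpr filter and the quasi-likelihood F-test with genotype as the only factor, adjusted by Benjamini-Hochberg over 15442 genes. Standard errors and 95% intervals come from that fit. No 2 libraries were repeats of 1 library: chi-square divided by its degrees of freedom was 12.3 between the mutants and 14.2 between the wild-type libraries. DESeq2 1.42.0, which the authors used, other scalings and filters, the likelihood ratio test, a replicate block and leaving out each library were alternatives.

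The hedgehog genes and all lists were chosen with earlier results of these data known. Named are the hedgehog genes, in each pathway list the 4 genes with the smallest p, in each marker list the most abundant gene (1 list excepted), and Sall1 and Wt1. Other genes were named after their values were seen. These include Foxl2, Bmp2, Amh, Ptgds, Aard, Sox9, Insl3, Cyp11a1, Mc2r, Sox10, Tcf21, Pdgfra, Osr2, Boc and Gas1, and the genes too low to test. Some items are not reported here. Of the listed genes, 1 was matched through an older symbol. Positions, exonic lengths and consensus matches come from GENCODE M1 on NCBIM37.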

Additional observations from a re-analysis of the deposited data

How the results depend on the processing

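The number of genes called over the whole table, 9, became 28 with no filter on low counts, 19 with at least 10 counts in every library, 105 with DESeq2, 134 with the likelihood ratio test, 385 with the replicate block and 118 with DESeq2 and the replicate block; it was 155 without mutant replicate 1, 47 without mutant replicate 2, 4 without wild-type replicate 1 and 2 without wild-type replicate 2. The 0 hedgehog genes called became 1 with the replicate block in edgeR, Gli2 (log2 fold change -0.55, adjusted p = 0.0275), and 0 with DESeq2 and the replicate block, where the adjusted p of Gli2 was 0.803. The 0 genes of the 4 pathway lists became 1, Ccnd1, with the replicate block in edgeR. Deviations of same-numbered libraries from the mean of their group correlated across genes (r = 0.481), and the column names give same-numbered libraries neighbouring library numbers, but no source used here says whether the number marks a shared litter, batch or day. With each library left out, both counts stayed at 0 and the lone library of a group was assumed to vary like the other group. Dhh reversed to 0.0098 without mutant replicate 2 and to 0.0070 without wild-type replicate 2 (range -0.24 to 0.01). The other 6 genes kept their sign under every alternative run, Gli2 between -0.60 and -0.48, Ptch1 between 0.17 and 0.31, Smo between -0.11 and -0.03, Gli1 between -0.37 and -0.13, Gli3 between -0.24 and -0.14, and Hhip between -1.62 and -0.27. For Ptch1, the unadjusted p exceeded 0.05 with upper-quartile scaling (0.051), the likelihood ratio test (0.0589), DESeq2 (0.0857, and 0.0994 with the replicate block), without mutant replicate 2 (0.197), without wild-type replicate 1 (0.141) and without wild-type replicate 2 (0.142). Ihh and Shh could be fitted only with no filter and with DESeq2, with log2 fold changes of 0.20 and 0.50 with no filter (unadjusted p = 0.836 and 0.6). RLE scaling shifted the median over all genes from -0.00088 to -0.0026 and upper-quartile scaling to -0.013. The depth limits what can be said of Dhh, Ihh and Shh. The cause of these changes was not tested.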
